A study of Mus musculus with 11 samples.

Results

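The 9 genes described here encode the proteins that carry retinol into cells (Stra6), store it (Lrat), oxidise it in turn to retinaldehyde (Rdh10) and to retinoic acid (RA; Aldh1a1, Aldh1a2 and Aldh1a3), reduce retinaldehyde back to retinol (Dhrs3) and bind RA inside the cell (Crabp1 and Crabp2). They were chosen by gene symbol, and each was read from the microarray probe sets whose annotation names that symbol alone, which gave 13 of 45101 probe sets and 9 of the 18194 genes that have a probe set of their own. Aldh1a3 had 3 probe sets, Rdh10 and Lrat had 2 each, and the other 6 genes had 1 each. A gene with several is read through the one with the highest mean log2 signal, and its other probe sets are given beside it. RNA was taken from 3 neighbouring regions of W/Wv mouse testes at 7 weeks of age: the Sertoli valve (SV), which is the end piece of the seminiferous tubule where it opens toward the rete, the rete testis (RT), which is the network of channels that collects the tubules, and convoluted seminiferous tubules (ST), which served as the control region. All donors carried the same pair of mutant Kit alleles, which leave the tubules with few germ cells, and every testis had trypan blue injected by way of the efferent ducts so that the regions could be cut apart by hand. There were 4 SV, 3 RT and 4 ST arrays, and each array was made from a pool of 20 testes, so the spread between arrays is a spread between pools of dissected pieces and no cell type was purified.

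Retinol arrives in blood bound to a carrier protein, and STRA6 is a membrane receptor through which it enters cells. LRAT joins it to a fatty acid and so makes the retinyl esters in which cells store it. RDH10 oxidises retinol to retinaldehyde, DHRS3 reduces retinaldehyde back to retinol, and the 3 ALDH1A enzymes oxidise retinaldehyde irreversibly to RA, the ligand of the nuclear RA receptors. CRABP1 and CRABP2 bind RA in the cytoplasm, and CYP26 enzymes break it down. In the mouse testis RA drives spermatogonia to differentiate, and Sertoli cells, which line the tubule and the Sertoli valve, are one of its sources.

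The values are MAS5.0 signals, the authors' summary of each probe set's intensity on a scale that starts at 0 and has no unit. The median signal of an array was 65.8 to 110 over the 11 arrays, with the highest medians in RT, while the brightest probe set of an array reached 25072 to 42175. Centring each array on its median would move every log2 difference by -0.11 for SV against ST, by -0.42 for RT against ST and by 0.32 for SV against RT. The share of all calls that were higher went with it: it was 95.7% as deposited and 91% after centring for SV against ST, 65.1% and 34.9% for RT against ST, and 37.2% and 66.8% for SV against RT. Replicates 1 and 2 also stood apart from replicates 3 and 4 in all 3 regions.

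The RA-making enzyme Aldh1a2 was 2.38-fold lower in RT than in ST and 2.60-fold higher in SV than in RT, while SV and ST overlapped. The retinol dehydrogenase Rdh10 was highest in SV, at 1.78-fold the ST and 1.85-fold the RT signal. Through their main probe sets, Aldh1a3 and Dhrs3 were 1.57-fold and 1.42-fold higher in RT than in ST. These log2 differences, 0.65 and 0.51, became 0.22 and 0.08 after median centring and 0.66 and 0.47 after quantile normalization. Of the other Aldh1a3 probe sets, 1417642_at differed by -0.03 and the dim 1427395_a_at by 2.24. Aldh1a1 overlapped between all 3 regions, and Crabp1 was high on 2 of the 3 RT arrays. Differences were tested with limma on log2 signal over all 11 arrays, with p-values adjusted by the Benjamini-Hochberg method over all 45101 probe sets, and a gene was called when its adjusted p was under 0.05 and its change over 2-fold. Among the 9 genes, Aldh1a2 was called in RT against ST and in SV against RT, and no other gene was called through its main probe set. In SV against ST, 0 of 9 genes were called in limma in either direction, where 1.5% of all probe sets were called higher and 0.0665% lower. On adjusted p alone 1 of the 9, Rdh10, was higher in SV than in ST, against 2.01% of all probe sets, and 0 were lower, against 0.259%. The unadjusted limma p was under 0.05 for 3 genes with a higher and 0 with a lower signal in SV, and the methods' t-test with the 2-fold threshold also called 0 in either direction, adjusted or not. In RT against ST, 0 of 9 were called higher, against 10.2% of all probe sets, and 1 was called lower, against 5.48%. On adjusted p alone 2 of the 9, Aldh1a3 and Dhrs3, were higher in RT than in ST and 1 was lower, where the shares over all probe sets were 14.5% and 10.8%, and an unadjusted p under 0.05 gave the same numbers. The methods' t-test with the 2-fold threshold called 0 higher and 1 lower as well, adjusted or not. In SV against RT, 1 of 9 was called higher, against 2.95% of all probe sets, and 0 were called lower, against 4.99%. On adjusted p alone 2 of the 9, Aldh1a2 and Rdh10, were higher in SV than in RT, against 6.44%, and 0 were lower, against 7.68%, while the unadjusted p was under 0.05 for 2 genes with a higher and 2 with a lower signal in SV. The methods' t-test called 1 higher and 0 lower unadjusted, and 0 in either direction after adjustment.

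**Figure D1:**
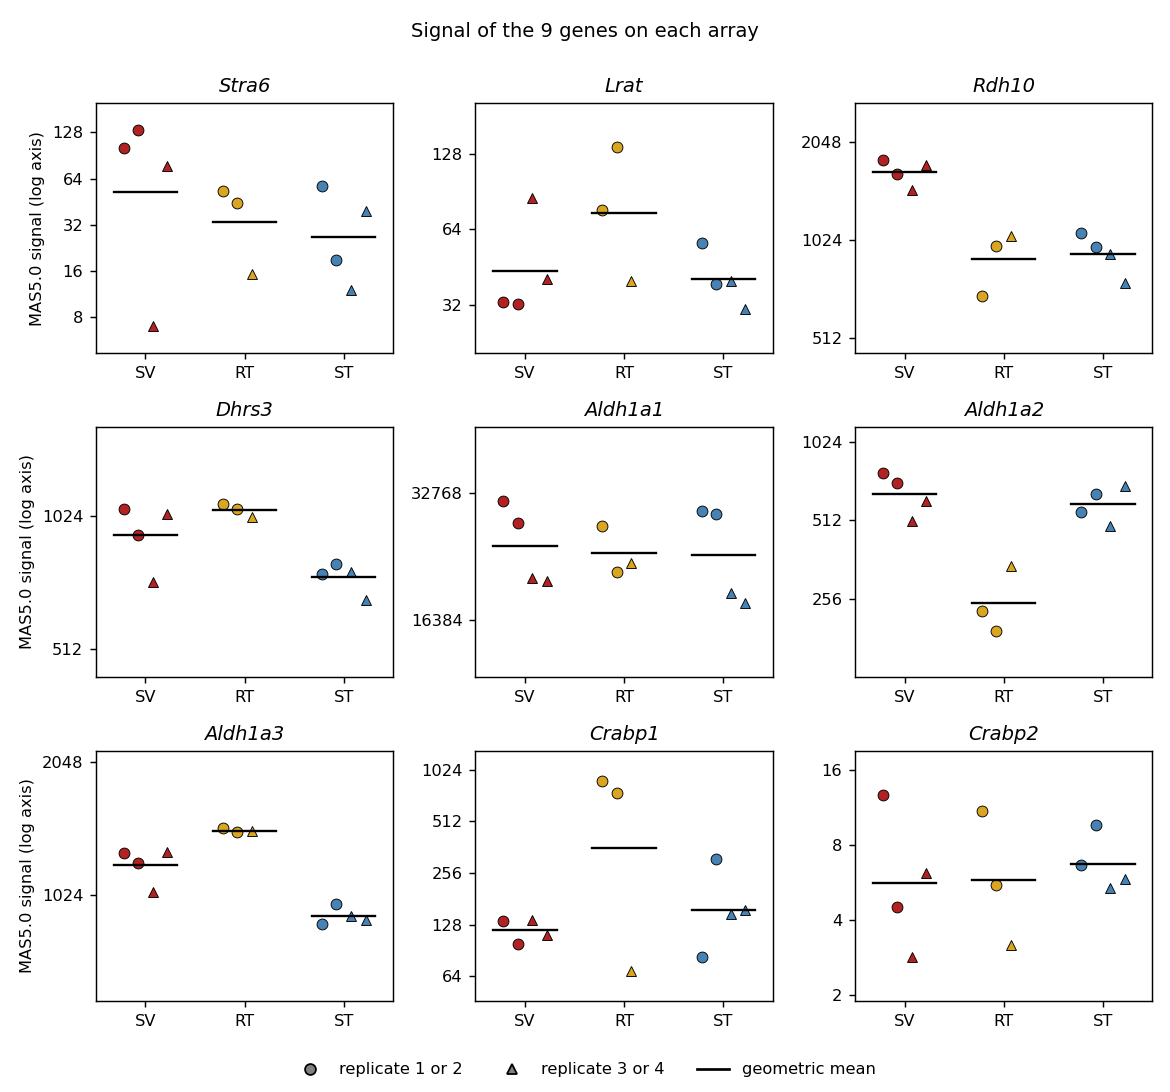
MAS5.0 signal of each of the 9 genes on every array, on a log axis that differs between panels, with SV, RT and ST from left to right. Circles are replicates 1 and 2, triangles replicates 3 and 4, and the line is the geometric mean of a region. The 3 RT arrays lie below all others for Aldh1a2, the 4 SV arrays lie above all others for Rdh10, and Aldh1a3 separates into 3 levels.

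The plot of signals by array shows each gene on its own scale, since signals of different probe sets cannot be set against each other. The median log2 difference of the 9 genes was 0.13 for SV against ST, where that of all probe sets was 0.00. It was 0.31 for RT against ST, where that of all probe sets was 0.14, and after median centring these were -0.11 and -0.29. It was -0.04 for SV against RT, where that of all probe sets was -0.11, and after centring these were 0.28 and 0.20. The groups did not overlap for 2 genes in SV against ST (Aldh1a3 and Rdh10), for 3 in RT against ST (Aldh1a2, Aldh1a3 and Dhrs3) and for 3 in SV against RT (Aldh1a2, Aldh1a3 and Rdh10), while over all probe sets the share without overlap was 7.45% in SV against ST, 33.7% in RT against ST and 25.5% in SV against RT.

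Stra6, the retinol receptor (probe set 1422723_at), was dim and variable. Its signal was 102, 133, 7.00 and 77.3 on the SV arrays, 53.5, 44.7 and 15.4 on the RT arrays, and 57.4, 19.1, 12.0 and 39.2 on the ST arrays. The highest 3 values were SV arrays, but SV replicate 3 was the lowest of all 11, and every region overlapped with the others. The log2 difference was 0.96 ± 0.86 (SE) for SV against ST, 0.31 ± 0.93 for RT against ST and 0.65 ± 0.93 for SV against RT, and none passed limma's threshold (adjusted p = 0.734, 0.857 and 0.728). With an array left out the SV against ST value ran from 0.51 to 1.92, the highest without SV replicate 3 (adjusted p = 0.0938, range over 22 alternatives 0.0938 to 0.998). Differences of this size in Stra6 were not detectable at its signal.

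Lrat, the enzyme that stores retinol as esters, was also dim in both of its probe sets. Probe set 1444487_at gave 32.9, 32.2, 85.8 and 40.5 in SV, 76.3, 137 and 39.7 in RT, and 56.5, 38.8, 40.0 and 30.7 in ST. Probe set 1421345_at gave 21.5, 16.8, 16.2 and 1.53 in SV, 51.4, 41.2 and 22.8 in RT, and 17.9, 7.49, 19.4 and 20.9 in ST. In the second probe set the 3 RT arrays were above all SV and all ST arrays, whereas in the first the regions overlapped. Neither passed limma's threshold: for RT against ST the log2 difference was 0.88 ± 0.50 (SE; adjusted p = 0.236) in the first and 1.25 ± 0.86 (adjusted p = 0.345) in the second, and for SV against RT it was -0.77 ± 0.50 (adjusted p = 0.371) and -1.90 ± 0.86 (adjusted p = 0.18). For SV against ST it was 0.11 ± 0.46 (adjusted p = 0.96) and -0.65 ± 0.80 (adjusted p = 0.828).

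Rdh10, which makes retinaldehyde from retinol, had its highest signals in SV in both probe sets. Probe set 1426968_a_at gave 1802, 1638, 1456 and 1744 in SV, 691, 982 and 1058 in RT, and 1079, 975, 932 and 759 in ST. All 4 SV arrays were above every RT and ST array, while RT and ST overlapped. The SV signal was 1.78-fold that of ST, a log2 difference of 0.83 ± 0.16 (SE; limma, adjusted p = 0.0126), and 1.85-fold that of RT, a log2 difference of 0.89 ± 0.17 (adjusted p = 0.00349), so both passed the adjusted p and neither reached 2-fold. With an array left out in turn, the first passed in 9 of 11 fits, missing without SV replicate 1 or SV replicate 4, and the second in 11 of 11, where it reached 2-fold without RT replicate 3 (1.01, adjusted p = 0.00315, range over 23 alternatives 0.00133 to 0.313). RT and ST differed by -0.05 ± 0.17 (adjusted p = 0.87).

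The other Rdh10 probe set, 1460632_at, gave 933, 837, 754 and 825 in SV, 545, 532 and 664 in RT, and 316, 357, 519 and 380 in ST. Here the 3 regions formed 3 separate levels, SV above RT and RT above ST, with no overlap. This probe set was called higher in SV than in ST, at 2.16-fold and a log2 difference of 1.11 ± 0.16 (SE; limma, adjusted p = 0.00215), and it stayed called with each of the 11 arrays left out in turn (1.02 to 1.26). RT was above ST by 0.58 ± 0.17 (adjusted p = 0.0245), under 2-fold, and SV was above RT by 0.53 ± 0.17 (adjusted p = 0.0587). The probe sets of Rdh10 thus gave the same order of SV and ST but placed RT differently. The adjusted p of 1426968_a_at for SV against ST was 0.0813 after median centring, 0.016 after quantile normalization and 0.0907 in the methods' t-test (range over its 23 alternatives 0.00532 to 0.453). That of 1460632_at was 0.0888 in the methods' t-test (range 0.000558 to 0.595).

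Dhrs3, which returns retinaldehyde to retinol and whose transcript RA is known to raise, was measured by probe set 1448390_a_at. It gave 1061, 926, 727 and 1036 in SV, 1088, 1061 and 1019 in RT, and 759, 796, 764 and 662 in ST. The RT arrays were above all ST arrays, and the SV arrays were too except replicate 3, which lay within the ST range. RT was 1.42-fold ST, a log2 difference of 0.51 ± 0.15 (SE; limma, adjusted p = 0.0201), under 2-fold. This difference shrank to 0.08 after median centring (adjusted p = 0.773, range over its alternatives 0.00519 to 0.773). After quantile normalization it was 0.47 ± 0.14 (limma, adjusted p = 0.0248), so it depends on which array scaling is used. With an array left out it passed in 8 of 11 fits, missing without RT replicate 1, RT replicate 2 or ST replicate 4. For SV against ST the difference was 0.32 ± 0.13 (adjusted p = 0.315) and for SV against RT it was -0.19 ± 0.15 (adjusted p = 0.47).

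Aldh1a1, the ALDH1A enzyme that mouse Sertoli cells express, was the member nearest the top of the arrays' signal range (probe set 1416468_at). Its signal was 31410, 27890, 20620 and 20300 in SV, 27460, 21370 and 22440 in RT, and 29840, 29280, 19050 and 18010 in ST. The regions overlapped throughout, and the 2 sets of replicates differed more than the regions did: the 6 arrays of replicates 1 and 2 ran between 21370 and 31410 and the 5 arrays of replicates 3 and 4 between 18010 and 22440. The log2 difference was 0.07 ± 0.21 (SE; adjusted p = 0.94) for SV against ST, 0.01 ± 0.22 (adjusted p = 0.977) for RT against ST and 0.06 ± 0.22 (adjusted p = 0.907) for SV against RT. With that set of replicates as a block the values were 0.07 ± 0.13, -0.07 ± 0.14 and 0.14 ± 0.14, and none passed.

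Aldh1a2, which makes RA in the embryo and, in the adult mouse testis, is known from germ cells, gave the clearest difference between regions. Its signal (probe set 1422789_at) was 779, 712, 509 and 608 on the SV arrays, 230, 193 and 344 on the RT arrays, and 553, 648, 485 and 693 on the ST arrays. The highest RT array was below the lowest SV and the lowest ST array, and SV and ST overlapped. The mean was 652 ± 119 in SV (SD, n = 4), 255 ± 78.8 in RT (n = 3) and 595 ± 93.3 in ST (n = 4). RT was 2.38-fold lower than ST, a log2 difference of -1.25 ± 0.22 (SE; limma, adjusted p = 7.87e-04), and SV was 2.60-fold higher than RT, a log2 difference of 1.38 ± 0.22 (adjusted p = 0.00116). SV and ST differed by 0.13 ± 0.20 (adjusted p = 0.876). Because these are pieces of tissue, fewer cells that express Aldh1a2 and less Aldh1a2 RNA per cell cannot be told apart.

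Both calls for Aldh1a2 held with each of the 11 arrays left out in turn (-1.49 to -1.07 for RT against ST and 1.20 to 1.61 for SV against RT) and after median centring (-1.67 and 1.69). The differences were smaller among replicates 3 and 4 alone, where RT has 1 array that the fit takes to vary like the SV and ST arrays: -0.76 ± 0.29 for RT against ST (adjusted p = 0.205, range over 23 alternatives 5.93e-05 to 0.205) and 0.69 ± 0.29 for SV against RT (adjusted p = 0.345, range 2.42e-04 to 0.345).

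The promoter of Aldh1a2 and that of 1 of the 2 listed starts of Aldh1a1 are shown because they set a gene that differed between the regions beside one of the same family whose differences did not pass. Each is the 250 bases before a RefSeq transcription start in mouse build GRCm38.p6, both on the plus strand, at chr9:71215539-71215788 for Aldh1a2 and at chr19:20601718-20601967 for Aldh1a1. Capitals mark the octamer ATGCAAAT and the CCAAT box. These motifs and the RA receptor half-site AGGTCA were searched on both strands, and they were chosen after the letters had been seen.
Aldh1a2: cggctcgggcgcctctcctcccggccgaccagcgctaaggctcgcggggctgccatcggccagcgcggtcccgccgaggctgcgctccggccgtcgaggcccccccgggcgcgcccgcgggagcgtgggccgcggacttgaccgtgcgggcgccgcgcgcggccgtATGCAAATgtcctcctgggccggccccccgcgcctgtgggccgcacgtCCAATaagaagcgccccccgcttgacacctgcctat
Aldh1a1: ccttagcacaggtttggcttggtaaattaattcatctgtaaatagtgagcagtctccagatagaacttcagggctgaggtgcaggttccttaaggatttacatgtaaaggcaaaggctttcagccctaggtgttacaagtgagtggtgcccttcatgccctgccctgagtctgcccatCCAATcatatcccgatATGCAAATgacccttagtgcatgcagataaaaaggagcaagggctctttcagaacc
In Aldh1a2 the octamer began 84 and the CCAAT box 36 bases before the start, and in Aldh1a1 the octamer began 56 and the CCAAT box 72 bases before it. The window of the other listed Aldh1a1 start, which is not shown, held none of these motifs. Of 32851 mouse windows of the same length, 1.6% held the octamer, 33.8% CCAAT and 14% AGGTCA. RefSeq windows were at hand for 6 of the 9 genes, 12 windows in all: the octamer was in 2 of these windows, CCAAT in 6 and AGGTCA in 0. These are matches of letters and nothing was measured at these sites.

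Aldh1a3, the third of the RA-making enzymes, was read from 3 probe sets that did not give the same picture. Probe set 1448789_at, the brightest, gave 1276, 1209, 1039 and 1279 in SV, 1450, 1420 and 1429 in RT, and 880, 975, 914 and 896 in ST. The 3 regions did not overlap, with RT highest and ST lowest. RT was 1.57-fold ST, a log2 difference of 0.65 ± 0.12 (SE; limma, adjusted p = 9.59e-04), under 2-fold. It fell short of the threshold after median centring (0.22, adjusted p = 0.296, range over its alternatives 2.87e-04 to 0.296). After quantile normalization it was 0.66 ± 0.11 (limma, adjusted p = 6.47e-04). SV was above ST by 0.39 ± 0.11 (adjusted p = 0.0894) and below RT by a log2 difference of -0.26 ± 0.12 (adjusted p = 0.169). With the replicate number as a block the SV against ST value passed (0.39 ± 0.09, limma, adjusted p = 0.0266), under 2-fold. After median centring it was 0.28 ± 0.13 (adjusted p = 0.4).

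The dim Aldh1a3 probe set 1427395_a_at gave 68.5, 24.7, 18.2 and 37.9 in SV, 143, 107 and 115 in RT, and 56.7, 40.7, 11.5 and 16.0 in ST. All 3 RT arrays were above every other array, and SV and ST overlapped. It was called higher in RT than in ST, at 4.72-fold and a log2 difference of 2.24 ± 0.61 (SE; limma, adjusted p = 0.0146), but not without RT replicate 1 (2.12, adjusted p = 0.0639, range over 22 alternatives 0.00421 to 0.109). For SV against RT the log2 difference was -1.87 ± 0.61 (adjusted p = 0.0565), and with the replicate number as a block it was -1.80 ± 0.51 (adjusted p = 0.0235), which is a call. It was also a call without SV replicate 1 (-2.23, adjusted p = 0.0307), without ST replicate 1 (adjusted p = 0.0422) and without ST replicate 3 (adjusted p = 0.0392), in a range over 22 alternatives of 0.00882 to 0.319. With the signal held at a floor of 32 the RT against ST value was 1.62 ± 0.30 (adjusted p = 0.00421), so part of the larger fold rests on signals under 32. Probe set 1417642_at lay between 171 and 323 in SV, 198 and 262 in RT, and 171 and 270 in ST, and its 3 log2 differences were between -0.03 and 0.06 (adjusted p = 0.915 to 0.982).

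Crabp1, a cytoplasmic RA-binding protein, was high on 2 RT arrays. Its signal (probe set 1448326_a_at) was 134, 99.5, 136 and 112 on the SV arrays, 877, 749 and 68.9 on the RT arrays, and 82.7, 307, 148 and 157 on the ST arrays. RT replicates 1 and 2 held the 2 highest values of all 11 arrays, and RT replicate 3 held the lowest. The log2 difference was 1.19 ± 0.70 (SE; limma, adjusted p = 0.259) for RT against ST and -1.58 ± 0.70 (adjusted p = 0.17) for SV against RT, and neither passed. Without RT replicate 3 both would be calls, at 2.38 (adjusted p = 8.25e-04, range over 23 alternatives 8.25e-04 to 0.686) and -2.77 (adjusted p = 7.11e-04, range 7.11e-04 to 0.532), so this array decides the result for Crabp1. SV and ST differed by -0.39 ± 0.65 (adjusted p = 0.885). Crabp2, the protein that delivers RA to its receptors, was at 2.83 to 12.8 in SV, 3.18 to 10.9 in RT and 5.40 to 9.67 in ST (probe set 1451191_at), and its 3 log2 differences were between -0.26 and -0.04 (adjusted p = 0.873 to 0.984). At such signals moderate differences in Crabp2 could not be measured.

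**Figure D2:**
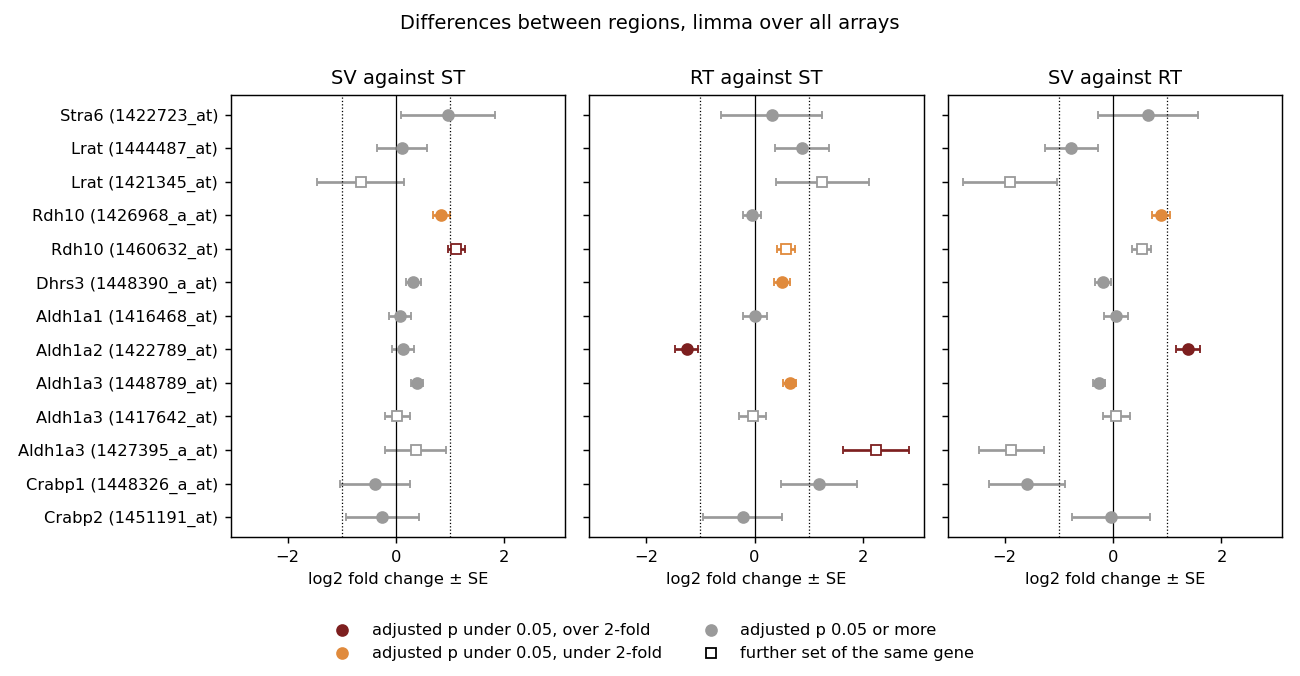
Log2 fold change with its standard error for all 13 probe sets of the 9 genes in SV against ST, RT against ST and SV against RT, from limma over all 11 arrays. Filled circles are the probe sets the genes are read through, open squares the further ones, and dotted lines mark 2-fold. Dark red points are calls: Rdh10 1460632_at in SV against ST, Aldh1a2 and Aldh1a3 1427395_a_at in RT against ST, and Aldh1a2 in SV against RT.

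Cell type markers moved with the regions, and their part in these results was not tested. The values are medians of each list's log2 signal above the mean of the ST arrays. Of 26 Sertoli cell markers 22 were measured, with medians of -0.84 to -0.07 on the SV arrays, -1.68 to -0.98 on the RT arrays and -0.18 to 0.12 on the ST arrays, and summed signals of 127681 to 167242, 78300 to 96760 and 154461 to 199511 in the same regions. In RT 11 of the 22 were called lower than in ST, where 5.48% of all probe sets were. In SV 10 were called higher than in RT, against 2.95% of all probe sets. In SV against ST 0 of the 22 were called in either direction. The 16 markers of rete testis epithelium had medians of 1.60 to 3.33 in SV, 4.06 to 5.49 in RT and -0.40 to 0.25 in ST, and summed signals of 9790 to 15873, 39246 to 52406 and 5152 to 6391 in the same regions. Krt8, a keratin of simple epithelia in that list, had signals of 1273, 539, 411 and 713 in SV, 7552, 7157 and 3939 in RT, and 30.7, 77.7, 99.5 and 70.9 in ST. All SV values of Krt8 lay between those of RT and ST, with no overlap. In SV 9 of the 16 markers were called higher than in ST, where 1.5% of all probe sets were.

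Markers of the efferent duct and epididymis, 12 of 15 measured, had medians of 0.38 to 1.10 in SV, 1.26 to 2.38 in RT and -0.17 to 0.17 in ST, and 6 of the 12 rose in RT against ST. Of 13 spermatogonial markers 11 were measured, with medians of -1.46 to -0.41 in SV, -2.77 to -1.66 in RT and -0.54 to 0.32 in ST, and in RT 7 fell and 1 rose against ST. The 1 that rose was Gfra1, which also rose in SV, and the summed signals of the list were 7756 to 8985 in SV, 8955 to 9532 in RT and 10307 to 12849 in ST. Ddx4, which marks germ cells, had signals of 145, 255, 397 and 297 in SV, 39.6, 29.2 and 98.1 in RT, and 183, 736, 725 and 928 in ST. The RT arrays were below all others for Ddx4, and SV and ST overlapped. No signal on these arrays was 0. Of the other marker lists, RT against ST had 4 of 9 endothelial, 2 of 9 stromal, 1 of 9 macrophage and 2 of 8 mesothelial genes higher, where 10.2% of all probe sets were, and 3 of 8 peritubular myoid, 1 of 8 mesothelial and 2 of 13 meiotic and later germ cell genes lower, where 5.48% were. After median centring 1 endothelial and 0 macrophage genes were higher and 15 Sertoli cell genes lower. Over all probe sets 2812 were then called higher and 5254 lower, where 4607 and 2473 were as deposited. After quantile normalization 2 endothelial and 4 stromal genes were higher, and 3482 of all probe sets were. As deposited, 0 of 6 Leydig cell genes were called in any of the 3 comparisons, in limma or in the methods' t-test. Before adjustment the limma p was under 0.05 for 2 higher in SV against ST, 0 in RT against ST and 1 higher in SV against RT. The list medians were 0.50, 0.04 and 0.46 in these comparisons, and after median centring 1 gene was called higher in SV against RT. Median centring raised the calls higher in that comparison from 1332 to 2710 over all probe sets. No share of all probe sets is given for the counts before adjustment.

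RT replicate 3, the array on which Crabp1 was lowest and Aldh1a2 was highest within RT, was also the RT array with the lowest medians for rete epithelium (4.06, against 5.49 and 5.23 on the other 2) and for efferent duct and epididymis (1.26, against 2.38 and 1.66), and with the highest median for Sertoli cells (-0.98, against -1.68 and -1.40). Within RT it also had the highest Leydig cell, peritubular myoid, endothelial, macrophage, spermatogonial and later germ cell medians, and the lowest stromal median. Of the SV arrays, replicate 3 was lowest for Stra6, Dhrs3, Aldh1a3, Rdh10, Aldh1a2 and Crabp2. It was highest for Crabp1 (136) and, through its main probe set, Lrat (85.8), while Aldh1a1 was lowest on SV replicate 4. SV replicate 3 had the lowest rete epithelium median of the SV arrays (1.60) and the highest Sertoli cell median (-0.07). It was also the lowest SV array for Leydig cells (-0.365), endothelium (-0.04), macrophages (-0.18), stroma, peritubular myoid cells, mesothelium and efferent duct and epididymis. Its medians for spermatogonia (-0.41) and for meiotic and later germ cells (-0.04) were the highest of the SV arrays.

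**Figure D3:**
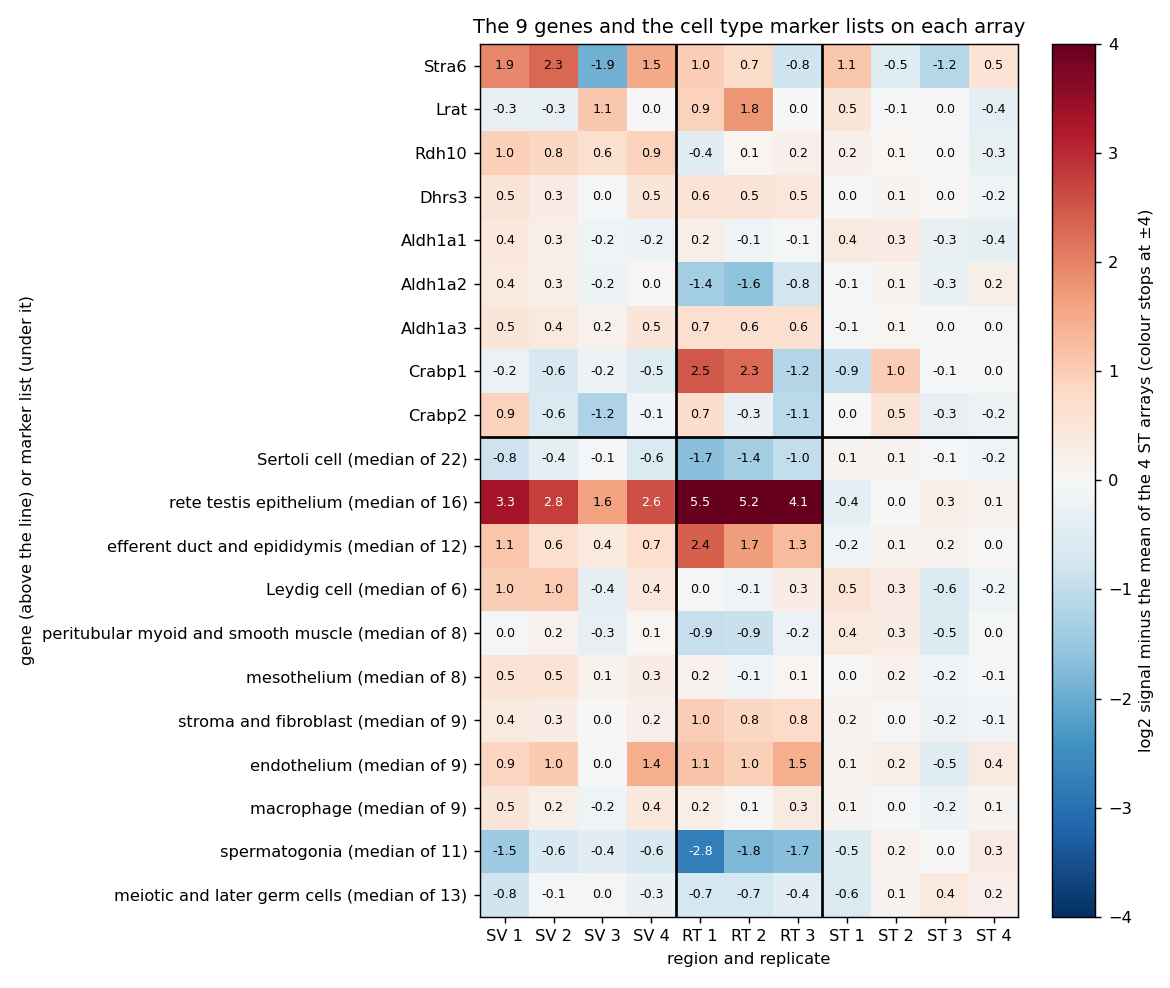
Log2 signal minus the mean of the 4 ST arrays, for the 9 genes above the line and for the median of each cell type marker list under it, on the SV, RT and ST arrays from left to right. Red is above and blue below ST, and the printed number is the value. Rete epithelium markers are at 1.6 to 3.3 in SV and at 4.1 to 5.5 in RT, Sertoli cell and spermatogonial markers are lowest in RT, and Aldh1a2 is at -1.6 to -0.8 in RT.

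The other genes of retinoid metabolism, 35 of 38 measured, are given by their counts. In SV against ST 1 rose and 0 fell in limma (9 and 6 with no adjustment of p, and 0 in either direction in the methods' t-test after adjustment), in RT against ST 6 rose and 5 fell, and in SV against RT 3 were higher and 3 lower. Over all probe sets the shares called higher and lower were 1.5% and 0.0665%, 10.2% and 5.48%, and 2.95% and 4.99% in these comparisons. No such share is given for the counts with no adjustment of p. The median log2 difference of the list was 0.06 (0.00 over all probe sets), 0.29 (0.14) and -0.31 (-0.11), and after median centring it was -0.04 (-0.11), -0.13 (-0.29) and 0.00 (0.20). In SV the gene was Lpl, the lipase that frees lipids from circulating lipoproteins, with signals of 740, 624, 818 and 935 in SV and 277, 273, 356 and 308 in ST (1.35 ± 0.15 (SE) on the log2 scale, limma, adjusted p = 3.56e-04). Lpl was also called higher in RT than in ST, with RT signals of 987, 840 and 1060 (1.67 ± 0.17, adjusted p = 1.15e-05). SV and RT differed by -0.31 ± 0.17 (adjusted p = 0.262).

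In RT the 4 largest fitted changes among the called genes were those of Rdh16, a microsomal retinol dehydrogenase, Lrp2, the endocytic receptor megalin that takes up retinol with its carrier, Adh4, an alcohol dehydrogenase that also oxidises retinol, and Fabp5, a fatty acid-binding protein that can carry RA. Rdh16 had 205, 159 and 47.8 in RT, against 2.07, 1.53, 15.3 and 3.87 in ST, and Lrp2 had 762, 641 and 107 in RT, against 27.5, 7.93, 36.4 and 18.0 in ST. Both rose, with fitted log2 differences of 4.97 ± 0.95 (adjusted p = 0.00159) and 4.26 ± 0.74 (adjusted p = 7.51e-04). All but 1 of their ST signals were under 32, so these sizes are not measured folds, and with a floor of 32 they were 1.86 ± 0.41 (adjusted p = 0.00954) and 3.50 ± 0.63 (adjusted p = 0.00352), with Rdh16 then below Dhrs4, a retinaldehyde reductase (2.01 with and without the floor). In both, as in Crabp1, RT replicate 3 was the lowest RT array. Adh4 changed by -3.16 ± 0.65 (adjusted p = 0.00257) and Fabp5 by -2.27 ± 0.28 (adjusted p = 6.27e-05). The same 4 genes had the largest changes among those called in SV against RT, with fitted log2 differences of -4.72, -3.19, 3.19 and 1.58, or -1.86, -2.97, 2.32 and 1.58 with the floor, and Lrp2 was called there with 9 of the 11 arrays left out in turn.

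Of the RA-degrading enzymes 2 of 3 were measured. Cyp26a1 had signals of 392, 359, 206 and 317 in SV, 17.3, 16.4 and 97.3 in RT, and 6.56, 8.59, 9.92 and 7.66 in ST, and it was called higher in SV, with fitted log2 differences of 5.26 ± 0.53 against ST (adjusted p = 1.46e-04) and 3.36 ± 0.58 against RT (adjusted p = 0.00187). With a floor of 32 these were 3.27 ± 0.37 and 2.74 ± 0.39, still calls. RT was called above ST (1.90 ± 0.58, adjusted p = 0.0266), but all ST signals and those of RT replicates 1 and 2 were under 32, and the value was 1.05 without RT replicate 3 (adjusted p = 0.124), 0.54 with the floor (adjusted p = 0.414) and 1.48 after median centring (adjusted p = 0.0633). Cyp26b1 was called lower in RT than in ST (-1.22 ± 0.14, adjusted p = 2.71e-05), with 993, 1175 and 893 in RT and 2666, 2483, 2162 and 2185 in ST, and SV against RT, at 0.82 ± 0.14 (adjusted p = 0.00164) and so under 2-fold, was a call after median centring (1.13). On the SV arrays, where Cyp26a1 was far above its ST signal, Rdh10 alone of the 9 genes passed the adjusted p against ST without a block. With the replicate number as a block Aldh1a3 passed as well (0.39 ± 0.09, limma, adjusted p = 0.0266), also under 2-fold.

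Of the retinoid receptors and related nuclear receptors, 9 of 10 measured, 0 were called in limma in any comparison, or in the methods' t-test after adjustment, with medians of 0.11 for SV against ST, -0.28 for RT against ST and 0.27 for SV against RT. The unadjusted limma p was under 0.05 for 1 higher and 0 lower in SV against ST, 2 and 2 in RT against ST, and 1 and 1 in SV against RT. After median centring 1 receptor was called lower in RT than in ST, where calls lower over all probe sets rose from 2473 to 5254. No share of all probe sets is given for the counts at unadjusted p.

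Of the genes known to respond to RA, 19 of 23 measured, 2 rose and 0 fell in SV against ST in limma (9 and 1 with no adjustment of p, and 1 and 0 in the methods' t-test after adjustment), 7 rose and 3 fell in RT against ST, and 4 were higher and 5 lower in SV against RT, with medians of 0.52, 0.93 and -0.41 (0.00, 0.14 and -0.11 over all probe sets, whose shares called higher and lower were 1.5% and 0.0665%, 10.2% and 5.48%, and 2.95% and 4.99%). These shares are for calls, so the counts with no adjustment of p have no share of all probe sets beside them. The list holds genes with quite different roles. Besides Cyp26a1, Meis2, a homeobox cofactor, rose in SV (1.54 ± 0.25, adjusted p = 0.00561) and more in RT (3.26 ± 0.27, adjusted p = 3.58e-06) against ST. The other largest changes in RT against ST were those of Sall4, a spermatogonial transcription factor (-5.49 ± 0.85, adjusted p = 3.24e-04, and -3.59 with a floor of 32), Stra8, the gatekeeper of meiosis that RA induces in germ cells (-3.13 ± 0.39, adjusted p = 6.47e-05), and Rec8, a meiotic cohesin subunit (2.84 ± 0.29, adjusted p = 1.34e-05). Sall4 and Stra8 also belong to the spermatogonial markers, which were lower in RT. In SV against RT the largest were Sall4 (4.26), Cyp26a1 (3.36), Rarres1 (2.04) and Rec8 (-1.97).

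**Figure D4:**
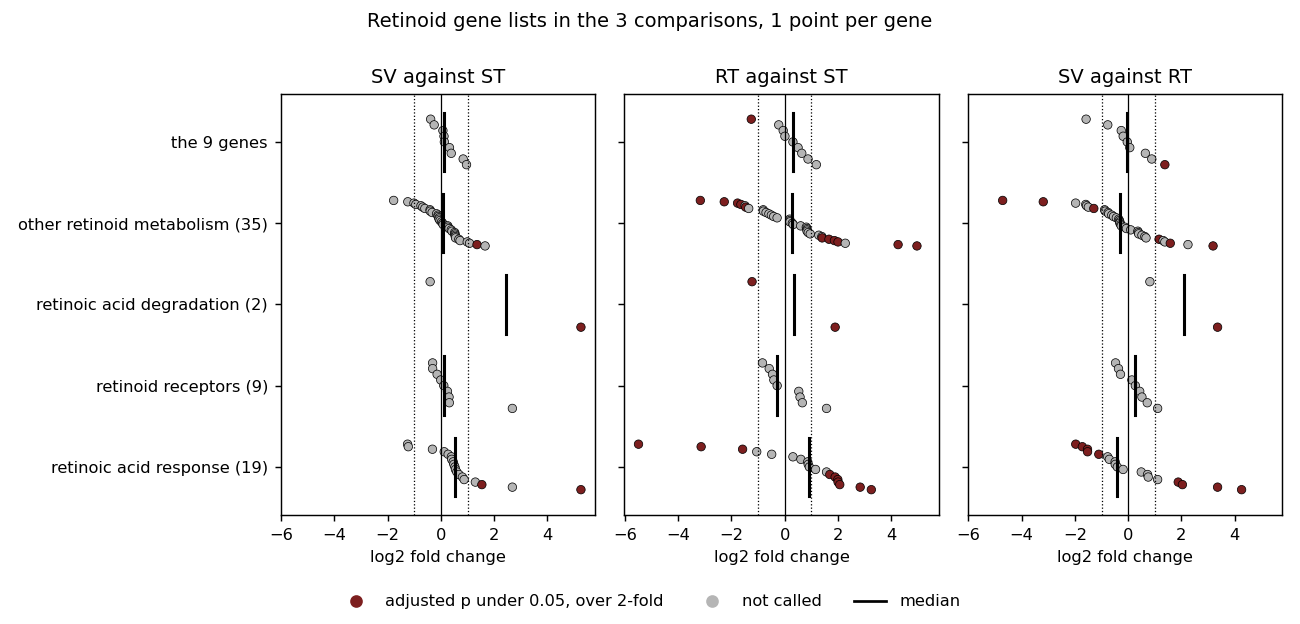
Log2 fold change of each gene of the 9 and of 4 retinoid gene lists in SV against ST, RT against ST and SV against RT, 1 point per gene, with the median as a bar and 2-fold as dotted lines. Dark red points are calls. The 9 genes hold 0 calls in SV against ST and 1 in each of the other comparisons, the receptors hold 0 in all 3, and the lists of other retinoid metabolism and of RA response hold 11 and 10 calls in RT against ST.

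The genes whose signal followed Aldh1a2 most closely over the 11 arrays, among 11586 genes with a signal above the median of all probe sets, were Inpp5a, a phosphatase of inositol phosphates (Pearson r = 0.96), Rarres1, a transmembrane protein first found as retinoid-responsive (r = 0.96), and Arid5a, an RNA-binding protein (r = 0.96). These correlations describe the same 11 pools and the same regional split, so they are given without a test. Rarres1 had signals of 3629, 2970, 2113 and 3120 in SV, 573, 600 and 1031 in RT, and 2258, 2991, 1610 and 1829 in ST, and like Aldh1a2 it was lowest in RT, with replicate 3 the highest of the RT arrays. It was called lower in RT than in ST (-1.58 ± 0.25, limma, adjusted p = 4.35e-04) and higher in SV when set against RT (2.04 ± 0.25, adjusted p = 3.1e-04). Inpp5a was lower in RT than in ST by adjusted p but under 2-fold (-0.56, adjusted p = 0.0022).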

How the data were processed

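Total RNA of each pool was hybridised to an Affymetrix Mouse Genome 430 2.0 array. Intensity values are MAS5.0 signals that the authors computed, scaled and deposited on a linear scale for 45101 probe sets, of which 34958 carry 1 gene symbol, 932 several and 9211 none. All 9 genes matched the RefSeq table by Entrez ID. Here the log2 of the deposited signal was fitted with limma 3.58.1 (R 4.3.3; lmFit and eBayes with an intensity trend, no covariate) over all 11 arrays, after tests on simulated data, and tables and plots were made in Python 3.11.15. No probe set was left out for low signal. The precision of a value is limited by 3 or 4 arrays a region.

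Every one of the 9 genes is named. From each retinoid list up to 4 called genes per comparison were named by size of change, and for each gene called through its main probe set the 3 genes with the most similar profile. The genes, the 4 retinoid lists and the 11 marker lists were chosen with earlier results of these data known. Genes of the lists with no probe set of their own were not analysed here.

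Replicate numbers come from the labels. After region means were removed, same-number arrays correlated at 0.28 to 0.67 over probe sets with a mean log2 signal above the median (0.07 to 0.19 over all). Other numbers of the same set of replicates correlated at 0.17 to 0.48 (0.07 to 0.18 over all). Arrays of the other set correlated at -0.58 to -0.28 (-0.18 to -0.08 over all). Since 10 of 11 arrays correlated best with their own number, the numbers were read as pairs. The main fit does not use these pairs, and the replicate block is an alternative to it. Alternatives were the methods' t-test, other normalizations, handling of low signals, blocks, subsets of replicates and leaving out each array.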

Additional observations from a re-analysis of the deposited data

Results flagged for a closer look

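In 26 groups of 4 arrays (13 probe sets, SV and ST) the gap between an extreme array and its neighbour was compared with the range of the group on the log2 scale, and 3 gaps were above Dixon's critical value at 95%, where chance gives about 1 group in 20. SV replicate 4 had a signal of 1.53 in Lrat probe set 1421345_at, the lowest of the 4 SV arrays by 0.893 of their range. ST replicate 2 had 7.49 in the same Lrat probe set, the lowest of the 4 ST arrays by 0.849 of their range. ST replicate 3 had 171 in Aldh1a3 probe set 1417642_at, the lowest of the 4 ST arrays by 0.899 of their range. None of these probe sets was called in a comparison that used these arrays.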

How the results depend on the processing

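Over 921 values of the 39 log2 differences under the alternatives, 895 kept their side of the threshold, 10 lost a call, 16 gained one and 0 called values turned sign, while 67 values in 20 results, none of them called, changed sign. The cause of these changes was not tested. Genes called higher in SV against ST numbered 0, and 1 when any probe set counted or no fold threshold was used. Genes higher in RT against ST numbered 0, but 1 with replicates 1 and 2 alone (Crabp1), 0 to 1 with an array left out (1 without RT replicate 3, Crabp1), 1 when any probe set counted and 2 with no fold threshold. Genes lower in RT against ST numbered 1, and 0 with replicates 3 and 4 alone, where the lone RT array is assumed to vary like the others. Genes higher in SV against RT numbered 1, but 0 with the methods' t-test after adjustment and with replicates 3 and 4 alone, 2 with median centring, with replicates 1 and 2 alone and with no fold threshold, and 1 to 2 with an array left out (2 without RT replicate 3, adding Rdh10). Over all probe sets median centring gave 2710 calls higher in SV against RT, where 1332 were called as deposited. Genes lower in SV against RT numbered 0, but 1 with replicates 1 and 2 alone and 0 to 1 with an array left out (1 without RT replicate 3, Crabp1). For Aldh1a2 in SV against RT the methods' t-test gave an adjusted p of 0.0563, and the 23 alternatives ran between 2.42e-04 and 0.345. With the replicate block, Aldh1a3 probe set 1427395_a_at was called in SV against RT (-1.80), and no other call of the 9 genes changed. Of the list genes named, Stra8 was called lower in SV against ST with that block (-1.26, adjusted p = 0.0265). Stra6, Lrat and Crabp2 were too dim for moderate differences to be measured, and RT had 3 arrays, of which replicate 3 decides Crabp1. The floor, the left-out arrays and the scalings for the list genes were added after seeing the data.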
